A study of Mus musculus with 6 samples.

Results

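The genes *Trhde*, *Lgr5* and *Tspan8* lie close together on mouse chromosome 10, and they were examined here with the genes around them in a myoblast model of myotonic dystrophy type 1 (DM1). DM1 is caused by an expanded CTG repeat that is transcribed into CUG-repeat RNA. C2C12, a mouse myoblast line that fuses into myotubes when serum is withdrawn, had been stably transfected with GFP-CUG5, a plasmid with 5 repeats (normal), or with GFP-CUG200, a plasmid with 200 repeats (DM1), so the cells of both groups carried a GFP transgene. Total RNA was sequenced at differentiation day 4 from 3 libraries per group. The lines were selected with G418 and the number of clones behind each is not given. The study calls the 3 libraries of a group biological replicates without saying how they were taken from its line, so the p-values below measure only the spread between libraries of 1 line per group.

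The list held 9 genes of the 55421 in the files: *Trhde*, *Tph2*, *Tbc1d15*, *Rab21*, *Thap2*, *Zfc3h1*, *Lgr5*, *Tspan8* and *Ptprr*. *Trhde*, *Lgr5* and *Tspan8* were put on the list because their level differed between DM1 and normal libraries in these same data, so their difference is given below as a description and without a p-value. The other 6 genes were listed for their position, with earlier results of these data known. They are not every gene in between, and the protein-coding *Tmem19*, between *Rab21* and *Thap2*, is not on the list. The outer ends of the list enclose chr10:114398823-116274932 (GRCm38), a stretch of 1876 kb that holds 24 genes of the files, 12 of them protein-coding, and all of these are accounted for. The question was whether *Lgr5* and *Tspan8* were higher in DM1 alone or together with the genes beside them.

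The products of these genes have little in common. LGR5 is a receptor for R-spondins, secreted proteins that strengthen Wnt signalling by keeping Wnt receptors at the cell surface, and *Lgr5* is itself a Wnt target and a stem cell marker of the intestine. TSPAN8 is a tetraspanin, a small protein that crosses the membrane several times, assembles other membrane proteins into patches and is abundant on epithelial cells and exosomes. TRHDE is a membrane aminopeptidase that inactivates thyrotropin-releasing hormone. Genes that share a stretch of chromosome can also share regulatory elements, which is why the genes beside a changed gene are informative.

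Sequences at the start of 4 of these genes are shown because they set genes listed for their difference between the groups (*Trhde* and *Tspan8*) beside a low neighbour (*Tph2*) and an abundant neighbour (*Zfc3h1*) listed for their position. Each window runs 5′ to 3′ on the gene's own strand from 250 bases before to 50 bases after the start site in RefSeq (GRCm38.p6). Capitals mark the E-box CAGCTG and the TATA box TATAAA where these letters occur. The windows are chr10:114802253-114802552 on the minus strand for *Trhde*, chr10:115817034-115817333 on the plus strand for *Tspan8*, chr10:115184973-115185272 on the minus strand for *Tph2* and chr10:115384709-115385008 on the plus strand for *Zfc3h1*. The RefSeq table had an entry for 8 of the 9 listed genes, all but *Lgr5*, and for 14 of the 24 genes of the stretch.
Trhde: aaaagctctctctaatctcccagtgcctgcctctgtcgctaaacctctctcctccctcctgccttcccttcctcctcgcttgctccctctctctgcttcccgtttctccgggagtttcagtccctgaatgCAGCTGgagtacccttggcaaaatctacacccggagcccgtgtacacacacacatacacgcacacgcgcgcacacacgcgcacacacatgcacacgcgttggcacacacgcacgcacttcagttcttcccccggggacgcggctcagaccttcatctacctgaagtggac
Tspan8: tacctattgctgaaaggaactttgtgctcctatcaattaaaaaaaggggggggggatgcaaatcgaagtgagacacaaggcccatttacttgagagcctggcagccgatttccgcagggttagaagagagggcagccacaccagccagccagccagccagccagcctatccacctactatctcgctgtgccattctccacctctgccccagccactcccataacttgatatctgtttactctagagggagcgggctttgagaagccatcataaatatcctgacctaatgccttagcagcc
Tph2: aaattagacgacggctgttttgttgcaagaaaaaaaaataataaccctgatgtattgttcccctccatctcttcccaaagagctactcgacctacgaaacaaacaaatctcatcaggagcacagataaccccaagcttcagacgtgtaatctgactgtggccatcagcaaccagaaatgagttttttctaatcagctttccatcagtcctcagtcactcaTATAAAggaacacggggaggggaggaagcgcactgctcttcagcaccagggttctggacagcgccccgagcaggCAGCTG
Zfc3h1: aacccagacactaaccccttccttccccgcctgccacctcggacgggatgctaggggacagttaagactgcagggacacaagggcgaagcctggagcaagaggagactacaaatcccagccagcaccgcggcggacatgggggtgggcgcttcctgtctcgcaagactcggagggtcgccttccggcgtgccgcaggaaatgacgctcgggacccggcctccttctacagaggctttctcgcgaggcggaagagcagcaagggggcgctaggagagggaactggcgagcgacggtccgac

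The windows differed in base composition. That of *Zfc3h1* had a GC content of 64.7% and 25 CpG dinucleotides, that of *Trhde* 58.3% and 19, that of *Tspan8* 51.7% and 5, and that of *Tph2* 47.3% and 9. Over the 32851 windows of the table the medians were 52.7% and 7 CpG. The *Tspan8* start site in RefSeq lay 452 bases downstream of the gene start in the files, so other transcripts of this gene may begin outside the window shown.

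Of 6 motifs searched on both strands (the E-boxes CAGCTG and CACCTG, the TATA box TATAAA, the TCF motifs CTTTGAA and CTTTGAT, and the CCAAT box CCAAT, with no overlap among the matches in these windows), the *Tspan8* and *Zfc3h1* windows held none. The *Trhde* window held 1 CAGCTG, an E-box of the kind bound by MyoD, starting 120 bases before the start site. The *Tph2* window held TATAAA 30 bases before the start site and a CAGCTG at base 295 of the window. CAGCTG occurred in 16.3% and TATAAA in 13.6% of all windows, CACCTG in 20.2%, CCAAT in 37.4%, and the TCF motifs CTTTGAA and CTTTGAT in 5.14% and 3.73%. These matches describe letters in the windows and not binding.

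The libraries held 61707889 to 80957325 counts. A count in these files stands for 75 aligned bases and 4 counts for about 1 sequenced fragment, so the depth was about 15426972 to 20239331 fragments. A count of 0 thus allows up to 3 fragments, or 12 counts, which is 0.148 to 0.194 CPM in these libraries. This limit, like every SD here, does not cover errors of alignment or assignment. The tests below used the counts as deposited, which are thus more numerous than the fragments behind them, and with counts divided by 4 the calls in the stretch were the same (*Lgr5* and *Tspan8*), with 258 genes higher and 145 lower of all genes. Levels are given below as CPM (counts scaled to library size, with TMM factors) to compare libraries and as TPM (a share of all transcripts, which divides by transcript length) to compare genes. The cutoffs for a call were an adjusted p under 0.05 together with a log2 fold change above 1 or below -1. The total RNA came from whole cultures, in which fewer cells of a type and less RNA per cell cannot be told apart.

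*Tspan8* (ENSMUSG00000034127, chr10:115816832-115849893, plus strand) was the most abundant of the genes chosen for their difference. Its counts were 540, 370 and 326 in the normal libraries and 3183, 2396 and 2285 in the DM1 libraries. Every DM1 library was far above every normal library, and the lowest DM1 library held more than the 3 normal libraries together. In CPM the means were 5.7 ± 0.922 (SD, n = 3) in normal and 36.9 ± 5.1 (SD, n = 3) in DM1. The fitted log2 fold change was 2.69 (SE 0.158), a 6.47-fold higher level in DM1, which placed *Tspan8* 38th from the top among the 19005 genes tested.

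*Lgr5* (ENSMUSG00000020140, chr10:115450311-115587780, minus strand) was low in both groups. The normal libraries held 4, 12 and 25 counts of it, which is about 1, 3 and 7 fragments, and the DM1 libraries held 95, 93 and 207 counts, about 24, 24 and 52 fragments. All DM1 libraries were above all normal libraries, and in each group the replicate 3 library was the highest. The CPM means were 0.2 ± 0.155 (SD, n = 3) in normal and 1.9 ± 1.05 (SD, n = 3) in DM1. The log2 fold change was 3.26 (SE 0.662), 9.56-fold, the 23rd highest of all genes tested. *Lgr5* did not pass the cutoffs when normal replicate 2 was left out (log2 fold change 3.25), and its log2 fold change ran from 2.70 without DM1 replicate 3 to 4.03 without normal replicate 3.

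*Trhde* (ENSMUSG00000050663, chr10:114398823-114802307, minus strand) rested on the fewest reads of these 3 genes. Its counts were 20, 5 and 0 in normal and 99, 55 and 26 in DM1, the last about 7 fragments. The groups did not overlap in CPM, with means of 0.106 ± 0.121 (SD, n = 3) and 0.832 ± 0.473 (SD, n = 3), although the counts of normal replicates 2 and 3 were under the limit that a count of 0 allows. The log2 fold change was 2.90 (SE 0.926). It ran from 2.35 without normal replicate 3 to 4.35 without normal replicate 1. *Trhde* was not past the cutoffs in the edgeR fit over all genes and was past them by DESeq2.

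**Figure D1:**
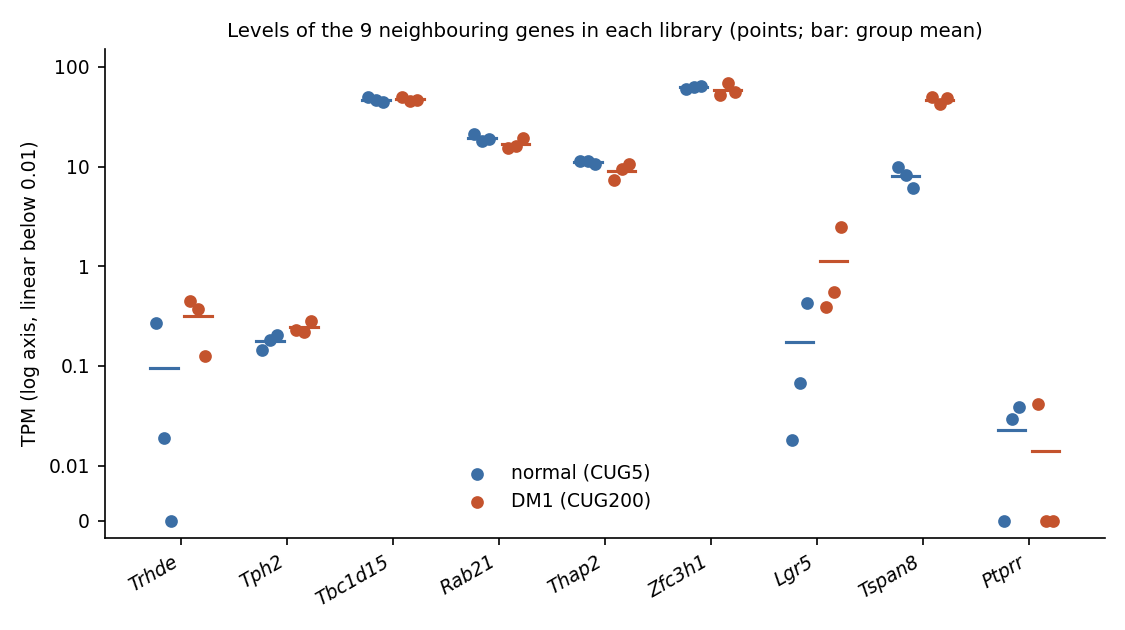
Deposited TPM (log axis, linear below 0.01) of the 9 listed genes, in chromosomal order, in each normal (blue) and DM1 (orange) library, with a bar at each group mean. *Tspan8* averaged 8.02 TPM in normal and 46.6 TPM in DM1, *Tbc1d15*, *Rab21*, *Thap2* and *Zfc3h1* overlapped between groups, and *Trhde* and *Lgr5* overlapped between groups on this scale.

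In TPM the picture was different for the low genes. *Tspan8* remained apart, with 9.79, 8.22 and 6.06 TPM in normal and 49.6, 42 and 48.2 TPM in DM1. *Lgr5* had 0.018, 0.068 and 0.431 TPM in normal and 0.393, 0.549 and 2.45 TPM in DM1, so that normal replicate 3 was above DM1 replicate 1. *Trhde* had 0.268, 0.0187 and 0 TPM in normal and 0.45, 0.371 and 0.126 TPM in DM1, and normal replicate 1 was above DM1 replicate 3.

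The overlap moved with the length of transcript to which the reads had been assigned. The counts and the deposited FPKM of a gene together give the mean transcript length that the authors' quantification used. For *Lgr5*, whose 8 annotated transcripts run from 560 to 4793 bases, this length was 4714, 4724 and 1338 bases in the normal libraries and 4591, 3577 and 2187 bases in the DM1 libraries. The replicate 3 library of each group thus had the shortest length, in which a given number of reads makes a higher TPM. For *Trhde*, with 3 transcripts of 1574 to 5714 bases, the length was 1587 bases in normal replicate 1 and 4176, 3131 and 5351 bases in the DM1 libraries, while normal replicate 2 had too few counts for a usable value. *Tspan8*, with 4 transcripts of 526 to 1381 bases, gave 1172 to 1241 bases in all 6 libraries. Whether the *Lgr5* lengths reflect transcripts in the cells or the assignment of very few reads was not tested.

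**Figure D2:**
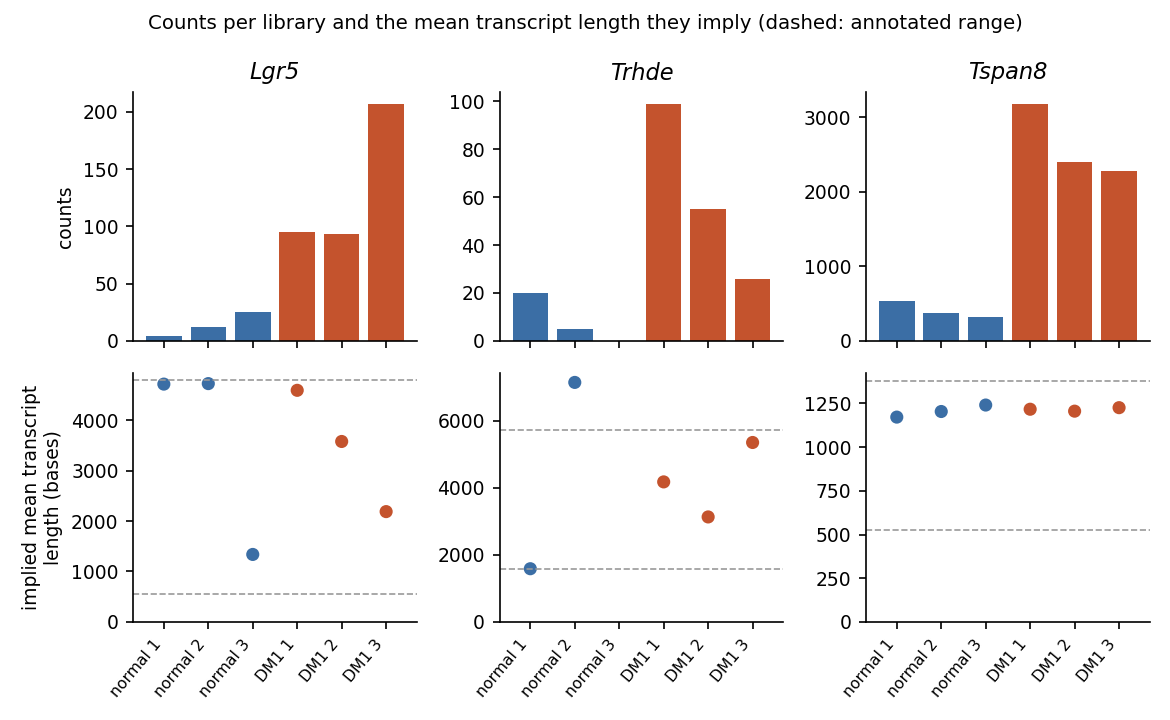
Counts per library (upper row, bars from 0) and the mean transcript length in bases that counts and FPKM imply (lower row) for *Lgr5*, *Trhde* and *Tspan8*, with normal libraries in blue, DM1 libraries in orange and dashed lines at the shortest and longest annotated transcript. The *Tspan8* length was steady at 1172 to 1241 bases, and that of *Lgr5* ranged from 1338 to 4724 bases.

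Between *Trhde* and *Lgr5* lie 14 genes of the files, of which 9 had enough counts to be tested. These include 5 of the 6 genes listed for their position, and none of the 5 passed the cutoffs (edgeR quasi-likelihood test), against 1.36% of all genes past them and higher in DM1 and 0.816% past them and lower. None of the 5 had an unadjusted p under 0.05 by edgeR either, against 30.7% of all genes tested. With 5 genes little can be read from these counts. DESeq2 also called 0 of the 5, with 0 unadjusted p-values under 0.05. *Tph2* had no adjusted p by DESeq2 and could not be called there. The log2 fold changes of the 5 genes ran from -0.13 to 0.56 with a median of 0.09, beside a median of 0.02 over all genes tested. *Gm8942* and *Tmem19*, which are among the 9 tested genes but not on the list, had an unadjusted p under 0.05 by edgeR and are described below. A p that misses the threshold does not show equal levels, so the 95% intervals of the differences are given.

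*Tph2* (ENSMUSG00000006764, chr10:115078641-115185022, minus strand) encodes the tryptophan hydroxylase of serotonin neurons. It had 18, 19 and 24 counts in normal and 33, 28 and 29 in DM1, about 5 to 9 fragments in a library. All DM1 libraries were above all normal libraries, as was the case in one direction or the other for 37.2% of all genes tested. Its log2 fold change was 0.56 (95% interval -0.41 to 1.53, adjusted p = 0.429 by edgeR), so a level up to 2.88-fold higher in DM1 was within the interval at this depth.

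*Tbc1d15* (ENSMUSG00000020130, chr10:115197872-115251467, minus strand), which encodes a GTPase-activating protein for Rab7 that acts at mitochondria and lysosomes, had 8592, 6213 and 6892 counts in normal and 9631, 7770 and 6462 in DM1. The groups overlapped, and the log2 fold change was 0.15 (95% interval -0.09 to 0.4, adjusted p = 0.390 by edgeR). *Rab21* (ENSMUSG00000020132, chr10:115287084-115315594, minus strand), an early endosome GTPase of integrin traffic, had 4471, 3104 and 3696 counts in normal and 3585, 3313 and 3199 in DM1. In CPM its DM1 libraries, at 46.5 to 48.2, were all slightly below its normal libraries, at 50.5 to 53.2. The log2 fold change of -0.13 (95% interval -0.3 to 0.04, adjusted p = 0.269 by edgeR) was not past the threshold.

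*Thap2* and *Zfc3h1* point away from each other, with start sites 516 bases apart. *Thap2* (ENSMUSG00000020137, chr10:115368404-115384443, minus strand) encodes a protein with a THAP zinc finger and had 2264, 1656 and 2023 counts in normal and 1776, 1983 and 1676 in DM1, with overlapping groups and a log2 fold change of -0.11 (95% interval -0.33 to 0.11, adjusted p = 0.510 by edgeR). *Zfc3h1* (ENSMUSG00000034163, chr10:115384959-115432772, plus strand) encodes a zinc finger protein that links nuclear polyadenylated RNA to the exosome for decay. It had 9560, 7364 and 8084 counts in normal and 8515, 9606 and 8204 in DM1, with overlapping groups and a log2 fold change of 0.09 (95% interval -0.1 to 0.29, adjusted p = 0.521 by edgeR). The sign of this small value turned to -0.09 when TPM were tested with limma in place of counts. For *Tbc1d15*, *Rab21*, *Thap2* and *Zfc3h1* the upper bound of every interval was at or under 0.4. It was 1.53 for *Tph2*, and among the tested genes not on the list it was -0.22 for *Tmem19*, 1.31 for *Gm8942*, 1.47 for *A130012E19Rik* and 2.33 for *Gm10752*. The log2 fold changes fitted for *Lgr5* and *Tspan8* were larger, but these genes were listed because they differ in this contrast.

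**Figure D3:**
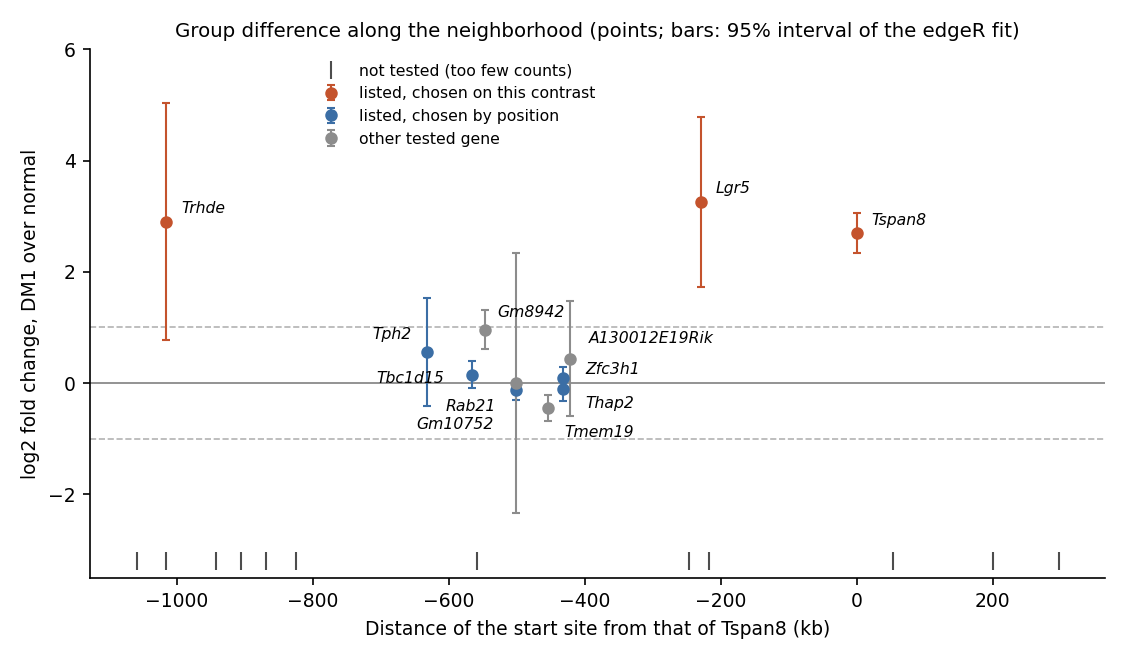
log2 fold change of DM1 over normal for the 12 tested genes of the stretch against the distance in kb of their start site from that of *Tspan8*, with bars for the 95% interval of the edgeR fit, dashed lines at a log2 fold change of -1 and 1, and ticks for the 12 genes with too few counts. *Trhde*, *Lgr5* and *Tspan8* (orange, chosen on this contrast) lay at 2.90, 3.26 and 2.69, and the genes between *Trhde* and *Lgr5* lay between -0.45 and 0.96.

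*Ptprr* (ENSMUSG00000020151, chr10:116018213-116274932, plus strand), on the far side of *Tspan8*, encodes a receptor-type tyrosine phosphatase that acts on MAP kinases. Its counts were 0, 5 and 7 in normal and 9, 0 and 0 in DM1, all under the limit that a count of 0 allows, and it did not pass the filter on low counts. No difference was detectable at this depth.

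The remaining tested genes of the stretch were *Gm8942*, *Tmem19*, *Gm10752* and *A130012E19Rik*. Of these, 2 had an adjusted p under 0.05 by edgeR without reaching the cutoff on the fold change, against 15.9% of all genes with such a p. *Tmem19* (chr10:115339674-115362501, minus strand), a gene for a membrane protein, had 2502, 2055 and 2449 counts in normal and 1656, 1746 and 1682 in DM1. Its level fell by 0.45 on the log2 scale (SE 0.101, adjusted p = 0.0207 by edgeR), and all DM1 libraries were below all normal libraries in CPM. The call was lost (adjusted p of 0.0675, 0.0794 and 0.103) when DM1 replicate 2, normal replicate 2 or normal replicate 3 was left out.

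*Gm8942* (chr10:115269978-115270377, plus strand) rose in DM1, with 719, 605 and 823 counts in normal and 1362, 1612 and 1175 in DM1 and a log2 fold change of 0.96 (SE 0.154, adjusted p = 0.00631 by edgeR). It is a processed pseudogene whose sequence was 97.5% identical over 402 aligned bases to *Rps24*, a ribosomal protein gene that itself rose by 0.69 on the log2 scale (SE 0.0837, adjusted p = 0.00252 by edgeR). Reads of *Rps24* and *Gm8942* can be exchanged by the aligner, so the count of the pseudogene is uncertain. *Gm10752* and *A130012E19Rik* had at most 64 counts in a library and overlapping groups. Their log2 fold changes were 0.00 (95% interval -2.33 to 2.33) and 0.43 (95% interval -0.60 to 1.47). Levels up to 5.04-fold and 2.76-fold higher in DM1 were thus within the intervals.

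Beyond these, 12 genes of the stretch were not tested, namely *Ptprr*, 4 others with some counts and 7 with no count in any library. *Gm8960*, the only gene that lies wholly between *Lgr5* and *Tspan8*, is a processed pseudogene 96% identical to the ribosomal protein gene *Rps3a1*. It had 0 counts in every normal library and 0, 122 and 81 in DM1, while *Rps3a1* rose by 0.62 on the log2 scale (SE 0.0863, adjusted p = 0.00361 by edgeR). *Gm15723*, which overlaps the start of *Trhde* on the other strand, had 5, 0 and 0 counts in normal and 0, 26 and 26 in DM1. *4930422I22Rik*, antisense to *Tspan8*, had 4 counts in DM1 replicate 2 and 0 in the other libraries, and *Taf7l2*, antisense within *Ptprr*, had none. The strand setting of the counting is not given in the sources used here. Reads in exons where these antisense genes overlap their partners thus cannot be told apart.

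Counted over the whole stretch, 12 genes were tested. *Lgr5* and *Tspan8*, which were listed because they differ in this contrast, were past the cutoffs and higher in DM1, so nothing is read from that count. None was past them and lower (0 also by DESeq2, and by edgeR 1 gene, *Tmem19*, was lower at an unadjusted p under 0.05). Without the genes chosen on this contrast, 9 tested genes remained, of which 0 passed the cutoffs, 2 had an unadjusted p under 0.05, against 30.7% of all genes tested, and 4 had groups that did not overlap, against 37.2%. Of the latter 2 were higher and 2 lower in DM1, and with 9 genes these shares are near those of all genes. Their median log2 fold change was 0.09.

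Genes outside the stretch were examined in the same fit. In the 1 Mb on either side, 14 of 40 genes were tested, 0 passed the cutoffs as higher in DM1 and 1 as lower, against 1.36% and 0.816% of all genes, and the median log2 fold change was -0.04. Within 5 Mb on either side, 77 of 208 genes were tested, 2 passed as higher and 1 as lower, close to those shares, and the median was -0.06. The higher genes were *Csrp2* and *Glipr1*. *Csrp2*, a gene for a LIM domain protein, had 2488 to 3883 counts in normal and 7125 to 8809 in DM1 (log2 fold change 1.38, SE 0.0855, adjusted p = 2.72e-04 by edgeR). *Glipr1* had 168 to 238 and 376 to 578 (1.14, SE 0.174, adjusted p = 0.00517 by edgeR). Without DM1 replicate 1 *Glipr1* stood at the cutoff on the fold change (1.00) and was no longer called. The lower gene, which lay within 1 Mb, was *Best3*, a chloride channel gene with 263 to 362 counts in normal and 123 to 178 in DM1 (log2 fold change -1.03, SE 0.23, adjusted p = 0.0201 by edgeR). The *Best3* call was lost without DM1 replicate 1 (log2 fold change -0.86), DM1 replicate 2 (adjusted p of 0.075), normal replicate 2 (0.0623) or normal replicate 3 (0.0906). Between the start sites of *Lgr5* and *Tspan8*, which point away from each other, lay 229 kb, and the start site of *Trhde* lay 785 kb from that of *Lgr5*, with 9 tested genes between them.

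The order of the genes by level was compared on the TPM scale, which divides by length. In normal libraries *Zfc3h1* was highest at 62.2 ± 2.11 TPM (SD, n = 3), followed by *Tbc1d15* at 46.9 ± 3.04, *Rab21* at 19.4 ± 1.41, *Thap2* at 11.1 ± 0.494 and *Tspan8* at 8.02 ± 1.87. The library ranges of these 5 genes did not overlap between neighbours in the order. Below them came *Tph2*, *Lgr5*, *Trhde* and *Ptprr* with means of 0.178, 0.172, 0.0955 and 0.0226 TPM, and no neighbours among these 4 were separated.

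In DM1 libraries *Tspan8* moved up the order. *Zfc3h1* was again highest at 58.9 ± 8.23 TPM (SD, n = 3), and *Tbc1d15* at 47.2 ± 2.33 and *Tspan8* at 46.6 ± 4.06 overlapped. *Rab21* at 16.8 ± 2.06 and *Thap2* at 9.08 ± 1.63 followed. *Lgr5* at 1.13 ± 1.14 and *Trhde* at 0.315 ± 0.169 overlapped, as did *Trhde* and *Tph2* at 0.245 ± 0.034, and *Ptprr* was lowest at 0.014 TPM.

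The genes whose profile over the 6 libraries was most like that of *Tspan8* were found by the root mean square difference of log2 CPM, each gene less its own mean. The nearest genes were *1600027J07Rik* (0.166), *Postn* (0.17), *Rarb* (0.266), *Tmem35b* (0.279) and *Gm21936* (0.29). *Postn*, which encodes the matrix protein periostin, had 4258, 2895 and 3193 counts in normal and 26033, 23802 and 23656 in DM1, and *Rarb*, a retinoic acid receptor gene, had 61, 57 and 29 in normal and 511, 316 and 321 in DM1. *1600027J07Rik* and *Tmem35b* had 0 counts in all normal libraries and 10 to 16 in the DM1 libraries, so their place rests on the prior count of 2 added before taking logs. None of these 5 genes lies on chromosome 10. *Trhde* and *Lgr5* stood at places 520 and 786 in this order.

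For *Lgr5* the nearest profiles were those of *Gm50367* (0.575), *Gm43488* (0.625), *Gm47078* (0.635), which also lies on chromosome 10, *Gm14966* (0.721) and *BC024139* (0.73). These are low genes, with at most 61 counts in any library. *Tspan8* stood at place 29 with 0.983, and *Trhde* at place 10215 with 1.84. When the group means were first subtracted, the 5 genes nearest to *Lgr5* stood at places 117 to 1025 of the order and those nearest to *Tspan8* at places 217 to 8343.

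**Figure D4:**
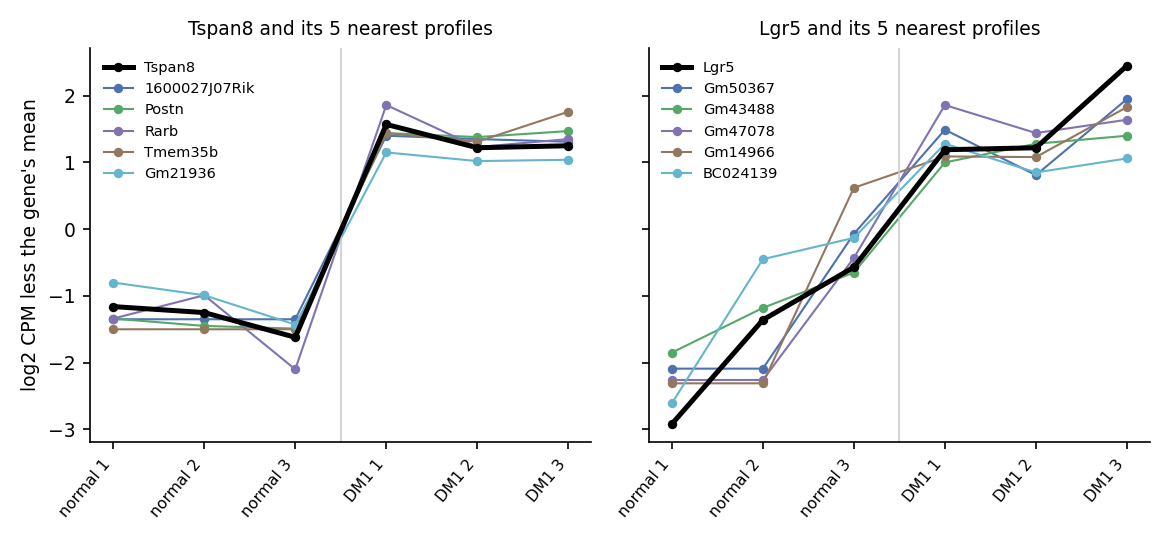
log2 CPM less the gene's own mean in each library for *Tspan8* (left, black) and *Lgr5* (right, black) with the 5 genes of the nearest profile. Lines join the points of a gene and carry no order of the replicates, and the nearest profile differed by 0.166 from *Tspan8* and by 0.575 from *Lgr5*.

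The families of these genes were described next, each without *Trhde*, *Lgr5* and *Tspan8*. For the counts that follow, 1.36% of all genes tested were past the cutoffs and higher in DM1 and 0.816% past them and lower, and 7.13% were higher and 8.73% lower at an adjusted p under 0.05. Among R-spondins, their receptors and the Wnt co-receptors, 6 of 10 genes were tested and none passed the cutoffs, with 0 higher and 2 lower at an adjusted p under 0.05 and a median log2 fold change of -0.20, beside 0.02 over all genes tested. *Lrp6*, a Wnt co-receptor, had 5268, 3589 and 4654 counts in normal and 3498, 3467 and 3300 in DM1 and fell by 0.37 on the log2 scale (SE 0.0814, adjusted p = 0.0188 by edgeR). This call was lost without DM1 replicate 2, normal replicate 1 or normal replicate 3 (adjusted p of 0.0745, 0.0673 and 0.109). *Rspo3* had no count in any library. The other lower gene was *Lgr4*, a relative of *Lgr5*, with 1607, 1047 and 1231 counts in normal and 951, 1014 and 828 in DM1 (log2 fold change -0.45, SE 0.109, adjusted p = 0.0271 by edgeR), and this call was lost when any library but DM1 replicate 3 was left out (adjusted p from 0.0542 to 0.0973). By TPM *Lgr4* was above *Lgr5* in every library, at 3.58 to 7.13 TPM, while *Lgr6*, at 1.11 to 2.24 TPM, was above it in all but DM1 replicate 3.

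Among Wnt target and feedback genes, 9 were tested, 2 were past the cutoffs and higher, 1 was past them and lower, and the median was -0.17. *Nkd2*, an inhibitor of Dishevelled, had 306, 208 and 207 counts in normal and 549, 896 and 889 in DM1, a log2 fold change of 1.74 (SE 0.228, adjusted p = 0.00316 by edgeR). *Axin2*, a scaffold of the complex that degrades beta-catenin, had 184, 187 and 192 counts in normal and 351, 442 and 479 in DM1, a log2 fold change of 1.18 (SE 0.207, adjusted p = 0.00838 by edgeR). *Tnfrsf19* had 64, 45 and 68 counts in normal and 16, 26 and 25 in DM1, and its level fell by 1.37 on the log2 scale (SE 0.374, adjusted p = 0.0400 by edgeR). The *Tnfrsf19* call, the only downward one, was lost when any library but DM1 replicate 3 was left out (adjusted p of 0.0908 and 0.0869 without DM1 replicates 1 and 2, and of 0.0921, 0.0822 and 0.151 without normal replicates 1, 2 and 3). *Dkk1* was at 0 in every library.

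Among tetraspanins, 28 of 30 genes besides *Tspan8* were tested, none was past the cutoffs and higher and 2 were past them and lower. These were *Tspan13*, with 447 to 559 counts in normal and 138 to 212 in DM1 (log2 fold change -1.47, SE 0.19, adjusted p = 0.00296 by edgeR), and *Tspan33*, with 192 to 299 and 84 to 107 (log2 fold change -1.44, SE 0.198, adjusted p = 0.00354 by edgeR). A further 4 were lower and none higher at an adjusted p under 0.05, and the median was -0.03. By TPM *Tspan8* held places 17, 17 and 20 of 31 tetraspanins in the normal libraries and 10, 11 and 11 in the DM1 libraries.

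Among the M1 aminopeptidases, the family of TRHDE, and the genes of its hormone, 11 were tested and none passed the cutoffs, with 1 higher and 2 lower at an adjusted p under 0.05 and a median of -0.02. *Erap1*, which trims peptides in the endoplasmic reticulum, rose by 0.60 on the log2 scale (SE 0.114, adjusted p = 0.0112 by edgeR), from 1950 to 2762 counts in normal to 3018 to 4019 in DM1. *Trh*, the gene of the hormone that TRHDE cleaves, had 12 counts in normal replicate 3 and 0 in the other libraries.

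In the list of aromatic amino acid hydroxylases and serotonin synthesis, which includes *Tph2*, 6 genes were tested and 1 passed the cutoffs, with 1 higher and 1 lower at an adjusted p under 0.05. The gene past the cutoffs was *Ddc*, the decarboxylase that makes serotonin and dopamine, with 372, 267 and 227 counts in normal and 155, 128 and 87 in DM1, which fell by 1.21 on the log2 scale (SE 0.228, adjusted p = 0.0109 by edgeR). *Maoa*, a monoamine oxidase gene, was the higher one, with 11797, 8864 and 8996 counts in normal and 18053, 15084 and 13161 in DM1 (log2 fold change 0.66, SE 0.0998, adjusted p = 0.00512 by edgeR). The median was -0.35, and *Th* was at 0 in every library.

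No gene passed the cutoffs in the lists for the products of the other neighbours. For *Rab21* and *Tbc1d15*, 12 early and late endosome genes were tested with a median of 0.01, and *Fis1*, the mitochondrial partner of TBC1D15, rose by 0.48 (log2, SE 0.0987, adjusted p = 0.0149 by edgeR). For *Zfc3h1*, 9 genes of nuclear exosome targeting were tested with a median of -0.01, and *Dis3*, an exosome nuclease, fell by 0.43 on the log2 scale (SE 0.0798, adjusted p = 0.0104 by edgeR). The *Fis1* call was lost without DM1 replicate 2, normal replicate 1 or normal replicate 3 (adjusted p of 0.0531, 0.0598 and 0.0732), and the *Dis3* call without DM1 replicate 2, normal replicate 2 or normal replicate 3 (0.0558, 0.0505 and 0.057). The 8 THAP domain genes tested had a median of -0.08, the smallest p belonging to *Thap12* (log2 fold change -0.34, adjusted p = 0.0524 by edgeR), and the 5 genes tested of the *Ptprr* list had a median of -0.17, the smallest p belonging to *Mapk3* (0.25, adjusted p = 0.115 by edgeR).

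Markers of the cell types that could carry these transcripts were read in the same libraries. All 14 myotube markers were tested, and the libraries expressed them strongly, at a summed 12669 to 15024 TPM in normal and 8416 to 10078 TPM in DM1, with 0 past the cutoffs and higher and 5 lower. Of 10 markers of undifferentiated myoblasts and reserve cells 1 was past the cutoffs, lower in DM1, and their sum was 305 to 318 TPM in normal and 265 to 323 TPM in DM1. Of 9 fibroblast and smooth muscle markers 8 were tested and 4 were past the cutoffs, all higher in DM1, with sums of 3073 to 3687 TPM in normal and 3686 to 4248 TPM in DM1. The myotube sum was lower in every DM1 library than in every normal library, and the other 2 sums overlapped between the groups. These overlaps ended when the gene of each list that was highest in DM1 libraries, *Acta2* or *Cd34*, was left out. Without *Acta2* the fibroblast and smooth muscle markers summed to 865 to 1024 TPM in normal and 1291 to 1481 TPM in DM1. Without *Cd34* the markers of undifferentiated cells summed to 263 to 266 TPM in normal and 182 to 232 TPM in DM1. In normal libraries *Cd34*, at 39.7 to 51.4 TPM, was below *Myod1*, at 52.4 to 58.2 TPM. *Cd34* rose to 78.7 to 91.5 TPM in DM1 (log2 fold change 0.97, adjusted p = 0.00305 by edgeR). It was the only marker of its list higher at an adjusted p under 0.05, against 3 lower, so leaving it out by itself moved the DM1 sum down. The values of these lists moved with the group, and the part of these cell types in the result for *Tspan8* and *Lgr5* was not tested.

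The intestinal epithelium, where *Lgr5* and *Tspan8* are well known, was read through 12 markers, of which 2 were tested and neither passed the cutoffs. Their sums were 30.3 to 41.8 TPM in normal and 35.3 to 42 TPM in DM1, nearly all of it from the keratin gene *Krt19* at 29.6 to 41.5 TPM over the 6 libraries, *Cdh1* had 54 to 96 counts in every library, and the markers *Cdx2*, *Olfm4*, *Epcam*, *Krt20* and *Lyz1* had no count in any library. Of 10 neuron and glia markers 4 were tested with 0 past the cutoffs, sums of 114 to 127 TPM and 84.2 to 110 TPM, most of it from *Tubb3* at 70.1 to 105 TPM and *Map2* at 13.8 to 28.5 TPM, and *Rbfox3*, *Olig2* and *Gad1* at 0. Of 8 endothelium and blood markers 2 were tested with 0 past the cutoffs, sums of 57.6 to 63.1 TPM and 61.4 to 69.6 TPM, most of it from the globin gene *Hba-a1* at 51.7 to 62.8 TPM, and *Adgre1*, *Hbb-bs* and *Ptprc* at 0.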

How the data were processed

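RNA-seq libraries of C2C12 cells with GFP-CUG5 (normal) or GFP-CUG200 (DM1) at differentiation day 4 were compared, 3 per group. The submitters' processing notes name Trim Galore, HISAT2, StringTie and GRCm38, with no versions. The authors deposited a matrix of whole-number counts per gene and, for each library, a table with coverage, FPKM and TPM per gene. Of 55421 genes, 54985 had the same span as in GENCODE M21.

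Counts were tested as deposited with edgeR 4.0.16 (R 4.3.3; filterByExpr, minimum count 10, TMM, robust quasi-likelihood fit, Benjamini-Hochberg adjustment over 19005 genes, common BCV 0.221). DESeq2 1.42.0, limma 3.58.1 on log2(TPM + 1) and log2(TPM + 0.1), other filters and scalings, a replicate block and each library left out were the alternatives. For 99.3% of single-transcript genes the deposited coverage times length divided by 75 gave the count within 1. The commonest low count was 4. Scripts were tested on simulated data.

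The members and gene lists were chosen with earlier results of these data known. Named genes were the listed genes, tested genes of the stretch with an adjusted p under 0.05, the 5 nearest profiles, and from each list up to 3 genes past the cutoffs in each direction with the smallest p, or the smallest p, and marker genes at 0. *Gm10752*, *A130012E19Rik*, the untested genes, the parent genes of the pseudogenes, the list genes at 0, the most abundant markers, *Cd34*, *Myod1*, *Map2*, *Cdh1*, *Best3*, *Csrp2*, *Glipr1*, *Lgr4*, *Lgr6*, *Maoa* and *Trh* were named outside this rule, after their values were seen.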

Additional observations from a re-analysis of the deposited data

Results flagged for a closer look

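Among the 12 untested genes of the stretch, *Gm31182*, *4930422I22Rik* and *Gm8960* had counts in DM1 libraries and none in normal libraries. *Gm31182*, a long noncoding RNA gene, reached 12 counts in a DM1 library, which is no more than a count of 0 allows, and *4930422I22Rik*, antisense to *Tspan8*, reached 4. *Gm8960*, the pseudogene between *Lgr5* and *Tspan8*, reached 122 counts in DM1 replicate 2 and had 0 in DM1 replicate 1. Its parent gene *Rps3a1* had 40301 to 72243 counts in the 6 libraries, and the part of misplaced *Rps3a1* reads in this value was not tested.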

How the results depend on the processing

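Of the 12 tested genes of the stretch, 2 were past the cutoffs and higher in DM1, against 1.36% of all genes tested. These were *Lgr5* and *Tspan8*, which were listed because they differ in this contrast, so nothing is read from the count. This count was 1 when at least 10 counts were asked of every library (*Lgr5* is left out by that filter). It was also 1 with limma on log2(TPM + 0.1) and 1 with limma on log2(TPM + 1), where *Tspan8* remained. In these 2 limma fits *Lgr5* had log2 fold changes of 2.09 and 0.75 and did not pass the cutoffs. An added pseudocount makes the fold change of a low gene smaller. These fits also replaced counts by TPM, and the part of each change was not tested. Leaving out 1 library at a time gave 1 to 4 genes past the cutoffs and higher. The count was 1 without normal replicate 2, where *Tspan8* remained, and 4 without DM1 replicate 1, where *Gm8942* and *Gm8960* were added to *Lgr5* and *Tspan8*. *Gm8942* was also added without DM1 replicate 3 and without normal replicate 3. DESeq2 called 3, *Trhde* being added. The count of genes past the cutoffs and lower was 0, and it was 1 with 1 Mb added on each side (*Best3*) and 1 with no cutoff on the fold change (*Tmem19*). None of the 5 tested genes listed for their position was past the cutoffs under any alternative in which it had an adjusted p. *Tph2* had none by DESeq2 or with counts divided by 4, so it could not be called there. *Zfc3h1* reversed to -0.09 with limma on log2(TPM + 0.1) and to -0.09 with limma on log2(TPM + 1), and the cause was not tested. Of the 5 nearest profiles, 0 were kept for *Tspan8* and 0 for *Lgr5* once group means were subtracted. Leaving out one library moved the log2 fold change of *Tspan8* from 2.58 to 2.79, of *Lgr5* from 2.70 to 4.03 and of *Trhde* from 2.35 to 4.35. The *Tnfrsf19* call was also lost with a replicate block (adjusted p of 0.062). With limma on TPM at both pseudocounts the calls of *Tnfrsf19*, *Lrp6*, *Lgr4* (adjusted p of 0.0947 and 0.0927), *Fis1*, *Dis3*, *Tmem19* (0.0527 and 0.0544) and *Glipr1* were lost. With log2(TPM + 1) those of *Best3*, *Axin2*, *Ddc* and *Tspan33* were lost too. Same-numbered libraries of the groups correlated at 0.0675, 0.0222 and 0.0263 in their deviations from group means, too little to pair them, and normal replicate 3 correlated best with DM1 replicate 2 (0.0451). The fit with a replicate block called 3 genes of the stretch higher, *Trhde* being added, and 234 higher and 139 lower of all genes, against 259 and 155 without the block. With at most 7 fragments in any normal library, depth limits the values of *Lgr5* and *Trhde*, and *Ptprr* was too low to test.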
